A study of Rattus norvegicus with 11 samples.

Results

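The lysosomal proteases and membrane proteins described here are 10 rat genes: the cysteine cathepsins Ctsb, Ctsc, Ctsh, Ctsk, Ctsl and Ctss, the aspartic cathepsins Ctsd and Ctse, and the membrane glycoproteins Lamp1 and Lamp2. They were chosen by symbol, with earlier results of these data known. All 10 had at least 1 probe set annotated to that gene alone, 18 probe sets in all, out of 8740 probe sets and 4736 genes on the array. Transcripts of rat alveolar epithelial cells were profiled in total RNA on 11 Affymetrix arrays. Type I (TI) cells are the flat cells that cover most of the alveolar surface, and type II (TII) cells are the cuboidal cells that make surfactant. The cultured TII group (3 arrays) held RNA from TII cells on day 7 of culture, the fresh TI group (4 arrays) RNA from TI cells on day 0, just after isolation, and the fresh TII group (4 arrays) RNA from TII cells on day 0. Groups were taken from the sample descriptions, because the source field names isolated TI cells for every array.

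Strain, age, sex, culture substrate and medium are not given in the sources used here, and no label ties an array to an animal or a culture. Every p-value below therefore measures only the spread between arrays, which may be technical. The labels of the fresh cells were checked against marker genes: 5 of 5 measured type I markers were higher, and 4 of 4 measured surfactant protein genes lower, in fresh TI than in fresh TII cells. In cultured relative to fresh TII cells 4 of 4 surfactant protein genes were lower, and 4 of 5 type I markers were higher: Pdpn by 3.69 ± 0.08, Akap5 by 2.46 ± 0.21, Aqp5 by 1.03 ± 0.25 and Ager by 0.95 ± 0.13 (log2 difference ± SE). Cav1, at -0.06 ± 0.18, and the other Aqp5 probe set, at 0.55, did not pass the test. Sftpc, a surfactant protein gene used as the defining type II marker, averaged 5.12 ± 0.10 on cultured TII, 11.90 ± 0.82 on fresh TI and 13.09 ± 0.07 on fresh TII arrays (log2 signal, mean ± SD).

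Cathepsins are proteases that are made as inactive precursors, sorted to lysosomes and switched on there by cleavage at acid pH. The cysteine cathepsins cut with a cysteine in the active site and the aspartic cathepsins with a pair of aspartates, while LAMP proteins are heavily glycosylated and line the inner face of the lysosomal membrane. In TII cells the lamellar body, the organelle that stores surfactant, is related to lysosomes and carries lysosomal proteins. Many lysosomal genes carry the letters CACGTG near their start, the core of a motif bound in human cells by TFEB, a transcription factor of lysosome biogenesis.

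The 250 bases before the RefSeq start (build GRCr8) were searched for CACGTG, which reads the same on both strands. A promoter was on hand for 9 of the 10 genes, all but Ctsb. CACGTG stood 5 times before Lamp1 and 2 times before Ctsd, and in none of the windows of Ctsc, Ctse, Ctsh, Ctsk, Ctsl, Ctss and Lamp2. Of 33469 rat promoters of the same length, 5.59% held at least 1 copy, 0.43% at least 2, and 1 promoter, that of Lamp1, held 5. The longer form CACGTGAC, which contains CACGTG, stood 4 times before Lamp1 and 2 times before Ctsd, and 1.63% of all promoters held it on either strand. The form TCACGTGA, which also contains CACGTG, stood 2 times before Lamp1 and 1 time before Ctsd, and 0.657% of promoters held it. Counted from the start, the copies of Ctsd began at -157 and -10, and those of Lamp1 between -183 and -38. The windows of Ctsd and Lamp1 are shown because they hold the motif, and that of Ctss as an example of a window without it, chosen after its values were seen. They are written 5′ to 3′ with CACGTG in capitals.
Ctsd, chr1:206968822-206969071, minus strand: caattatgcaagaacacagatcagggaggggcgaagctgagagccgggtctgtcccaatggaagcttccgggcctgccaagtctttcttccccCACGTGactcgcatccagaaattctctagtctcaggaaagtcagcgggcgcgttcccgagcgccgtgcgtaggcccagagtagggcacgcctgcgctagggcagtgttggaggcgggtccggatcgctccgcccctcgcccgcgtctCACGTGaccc
Lamp1, chr16:83075064-83075313, minus strand: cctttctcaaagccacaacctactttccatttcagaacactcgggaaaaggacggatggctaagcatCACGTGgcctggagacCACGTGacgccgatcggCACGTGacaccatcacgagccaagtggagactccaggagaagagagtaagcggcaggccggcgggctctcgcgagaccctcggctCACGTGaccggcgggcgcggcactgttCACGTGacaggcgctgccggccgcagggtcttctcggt
Ctss, chr2:185775146-185775395, plus strand: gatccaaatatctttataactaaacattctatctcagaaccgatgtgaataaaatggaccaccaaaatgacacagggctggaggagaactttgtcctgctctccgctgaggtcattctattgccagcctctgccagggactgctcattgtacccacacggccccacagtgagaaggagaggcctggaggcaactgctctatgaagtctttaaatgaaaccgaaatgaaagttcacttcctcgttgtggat

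**Figure D1:**
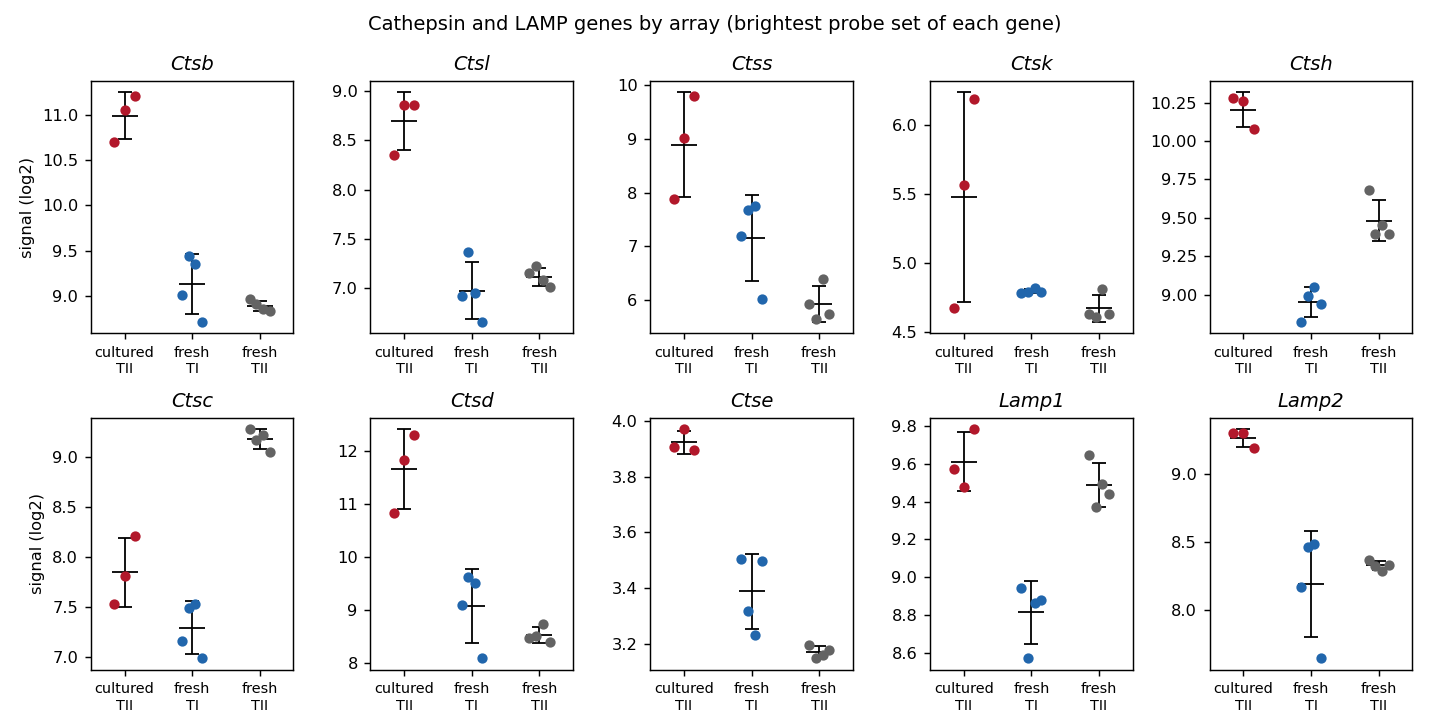
Signal (log2, y axis, scaled for each gene) of the 10 genes on each array, for cultured TII (red), fresh TI (blue) and fresh TII (grey) cells. Points are arrays and bars are mean ± SD for the brightest probe set of the gene (n = 3, 4 and 4). The cultured TII arrays lie above both fresh groups for Ctsb, Ctsl, Ctss, Ctsh, Ctsd, Ctse and Lamp2, and the fresh TII arrays lie above both others for Ctsc.

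In culture most of these genes rose. Between cultured TII and fresh TII cells 8 of 10 genes were higher, 1 (Ctsc) was lower and 1 (Lamp1) did not pass the test, which was limma's moderated test with Benjamini-Hochberg adjustment over all 8740 probe sets at an adjusted p under 0.05. Each gene was represented by its brightest probe set. Over all 4736 genes 34.6% were called in this comparison, 20.5% higher and 14% lower. The arrays of the groups did not overlap for 8 of the 10 genes, against 44.5% of all genes. By role, 5 of 6 cysteine cathepsins and 2 of 2 aspartic cathepsins rose, as did 1 of 2 LAMP genes. The median difference of the 10 genes was 0.87 (log2), against -0.005 for all genes, and 4 of the 10 were called at least 2-fold higher, against 4.62% of all genes. The beta-actin control for RNA integrity, the 3′ minus 5′ signal, moved with culture as well: it was -0.33 to -0.08 on cultured TII, 0.21 to 0.42 on fresh TI and 0.32 to 0.43 on fresh TII arrays. The GAPDH control was 0.3 to 0.45 on cultured TII, 0.41 to 0.69 on fresh TI and 0.47 to 0.57 on fresh TII arrays. For it the cultured TII and fresh TI ranges overlapped. The part of RNA integrity in these results was not tested.

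Ctsd (Entrez gene 171293), the main aspartic protease of lysosomes, had the largest difference of the 10 genes between cultured and fresh TII cells. Its signal was 10.83, 11.84 and 12.32 on the cultured TII arrays, 9.09, 9.63, 9.51 and 8.09 on the fresh TI arrays, and 8.48, 8.52, 8.75 and 8.39 on the fresh TII arrays. Every cultured array stood above every fresh array, while the fresh groups overlapped. The difference of cultured TII from fresh TII was 3.13 ± 0.36 (log2, SE; 8.76-fold, adjusted p = 1.46e-05) and that of cultured TII from fresh TI 2.59 ± 0.36 (adjusted p = 7.03e-05). A second Ctsd probe set, whose name marks sequence shared by several transcripts, gave 3.44 ± 0.45 and 2.91 ± 0.45.

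Ctss (50654), the protease that trims the invariant chain of MHC class II in antigen-presenting cells, read 7.87, 9.02 and 9.80 on cultured TII, 7.19, 7.68, 7.74 and 6.01 on fresh TI, and 5.93, 5.65, 6.39 and 5.74 on fresh TII arrays. The cultured arrays spanned almost 2 log2 units but none fell among the fresh arrays. Ctss was higher in cultured TII than in fresh TII cells by 2.97 ± 0.44 (7.84-fold, adjusted p = 0.000146) and higher than in fresh TI cells by 1.74 ± 0.44 (adjusted p = 0.00502). Fresh TI arrays were higher than fresh TII by 1.23 ± 0.41 (adjusted p = 0.0234), with 1 fresh TI array, number 4, inside the fresh TII range. That call ended without any 1 of fresh TI arrays 1, 2 or 3 or fresh TII arrays 2 or 4 (1.03 to 1.22, adjusted p up to 0.0631; lowest over all alternatives 5.62e-05).

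Ctsb (64529), an abundant endopeptidase that also removes dipeptides from the carboxyl end, read 10.70, 11.06 and 11.21 on cultured TII, 9.01, 9.44, 9.35 and 8.72 on fresh TI, and 8.96, 8.91, 8.85 and 8.84 on fresh TII arrays. It rose by 2.10 ± 0.16 in cultured TII relative to fresh TII cells (4.29-fold, adjusted p = 3.06e-07). Ctsl (25697), a strong lysosomal endopeptidase, read 8.36, 8.86 and 8.86 on cultured TII, 6.92, 7.36, 6.95 and 6.66 on fresh TI, and 7.15, 7.22, 7.08 and 7.02 on fresh TII arrays. For both genes the cultured arrays stood apart and the fresh groups overlapped. Ctsl rose by 1.58 ± 0.16 relative to fresh TII cells (2.98-fold, adjusted p = 3.69e-06), although its second probe set gave 0.25 ± 0.10 (adjusted p = 0.0675). The name of the brighter Ctsl probe set marks sequence shared by several transcripts. Over all alternatives the Ctsl difference ran from 0.91 to 1.75.

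Ctsk (29175), a collagen-degrading protease best known from osteoclasts, was called higher in culture but with widely spread arrays. It read 4.68, 5.57 and 6.19 on cultured TII, between 4.79 and 4.82 on fresh TI, and 4.63, 4.61, 4.82 and 4.64 on fresh TII arrays. One cultured array lay inside the fresh TII range, and the others lay above every fresh array. The difference from fresh TII was 0.80 ± 0.24 (adjusted p = 0.0202) and that from fresh TI 0.68 ± 0.24 (adjusted p = 0.028). Without cultured TII array 2 the difference from fresh TII was 0.76 and without array 3 it was 0.45, and neither passed (adjusted p = 0.07 and 0.0815, range over all alternatives 1.87e-05 to 0.0815), while without array 1 it was 1.20. Against fresh TI the call also ended without array 2 (0.64, adjusted p = 0.0806), without array 3 (0.32, adjusted p = 0.144) or without fresh TI array 1 (0.68, adjusted p = 0.0551; range over all alternatives 5.86e-05 to 0.144). In the rat annotation Ctsk and Ctss are near neighbours on chromosome 2, with 1 gene listed between them.

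Ctse (25424), an aspartic protease of endosomes known from gastric epithelium and immune cells, was dim. Its mean signal exceeded that of only 14.4% of probe sets, and the name of its probe set marks sequence shared by several transcripts. It read 3.91, 3.97 and 3.89 on cultured TII, 3.51, 3.32, 3.23 and 3.50 on fresh TI, and between 3.15 and 3.20 on fresh TII arrays, with no overlap between any groups. The difference of cultured TII from fresh TII was 0.75 ± 0.08 (1.68-fold, adjusted p = 6e-06). No measure of background came with these values, so how far such a dim signal stands above background is not known here.

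Ctsh (25425), an aminopeptidase that takes part in the maturation of surfactant protein B, had a different order of groups. It read 10.28, 10.26 and 10.08 on cultured TII, 8.83, 8.99, 9.05 and 8.94 on fresh TI, and 9.68, 9.40, 9.45 and 9.39 on fresh TII arrays, and no groups overlapped. Cultured TII cells were above fresh TII by 0.72 ± 0.09 (1.65-fold, adjusted p = 3.42e-05), and fresh TI cells were below fresh TII by 0.53 (difference -0.53 ± 0.08, adjusted p = 0.000249). The transcript of this processing enzyme thus moved opposite to the surfactant protein genes in culture: Sftpb, whose product it helps to cut, differed by -5.58 ± 0.32 between cultured and fresh TII cells.

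Ctsc (25423), dipeptidyl peptidase I, which activates serine proteases stored in granules of immune cells, was the 1 member that fell in culture. It read 7.53, 7.81 and 8.21 on cultured TII, 7.16, 7.50, 7.53 and 6.99 on fresh TI, and 9.27, 9.16, 9.22 and 9.04 on fresh TII arrays. Fresh TII arrays stood above all others, and the cultured TII and fresh TI arrays met at 7.53. Relative to fresh TII cells the difference was -1.33 ± 0.16 for cultured TII (adjusted p = 2.19e-05) and -1.88 ± 0.15 for fresh TI (adjusted p = 4.3e-07). Its second probe set gave -1.50 ± 0.17 and -2.36 ± 0.15. Cultured TII exceeded fresh TI cells by 0.55 ± 0.16 (adjusted p = 0.00988), a call that ended without cultured TII array 3 (0.37, adjusted p = 0.0539) and after quantile normalization (0.37, adjusted p = 0.0553, the highest over all alternatives, of which the lowest was 0.00225).

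Of the membrane glycoproteins, on their brightest probe sets, Lamp2 was called higher in culture and Lamp1 was not called. The 2 genes were not tested against each other. Lamp2 (24944), which occurs in splice forms of which one is the receptor of chaperone-mediated autophagy, read 9.30, 9.29 and 9.19 on cultured TII, 8.17, 8.46, 8.48 and 7.65 on fresh TI, and 8.37, 8.32, 8.29 and 8.33 on fresh TII arrays. All cultured arrays lay above all fresh ones. Lamp2 was higher in cultured TII than in fresh TII cells by 0.93 ± 0.16 (1.91-fold, adjusted p = 0.000427), and its other probe sets gave 0.94 ± 0.18 and, not called, 0.30 ± 0.19 (adjusted p = 0.279).

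Lamp1 (25328), the most widely used lysosomal marker, read 9.57, 9.48 and 9.78 on cultured TII, 8.94, 8.57, 8.86 and 8.88 on fresh TI, and 9.65, 9.37, 9.49 and 9.44 on fresh TII arrays. Cultured and fresh TII arrays overlapped, with a difference of 0.12 ± 0.11 (adjusted p = 0.447, 95% interval -0.11 to 0.35), and both lay above the fresh TI arrays. The 3 dimmer Lamp1 probe sets did not repeat that order. They differed between cultured and fresh TII cells by 0.04, 0.10 and 0.30, of which the last was called (adjusted p = 0.0322). The genes whose promoter windows hold CACGTG thus differed between cultured and fresh TII cells by 3.13 (Ctsd) and 0.12 (Lamp1, not called). The 7 genes with no copy differed by -1.33 (Ctsc), 0.72 (Ctsh), 0.75 (Ctse), 0.80 (Ctsk), 0.93 (Lamp2), 1.58 (Ctsl) and 2.97 (Ctss).

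**Figure D2:**
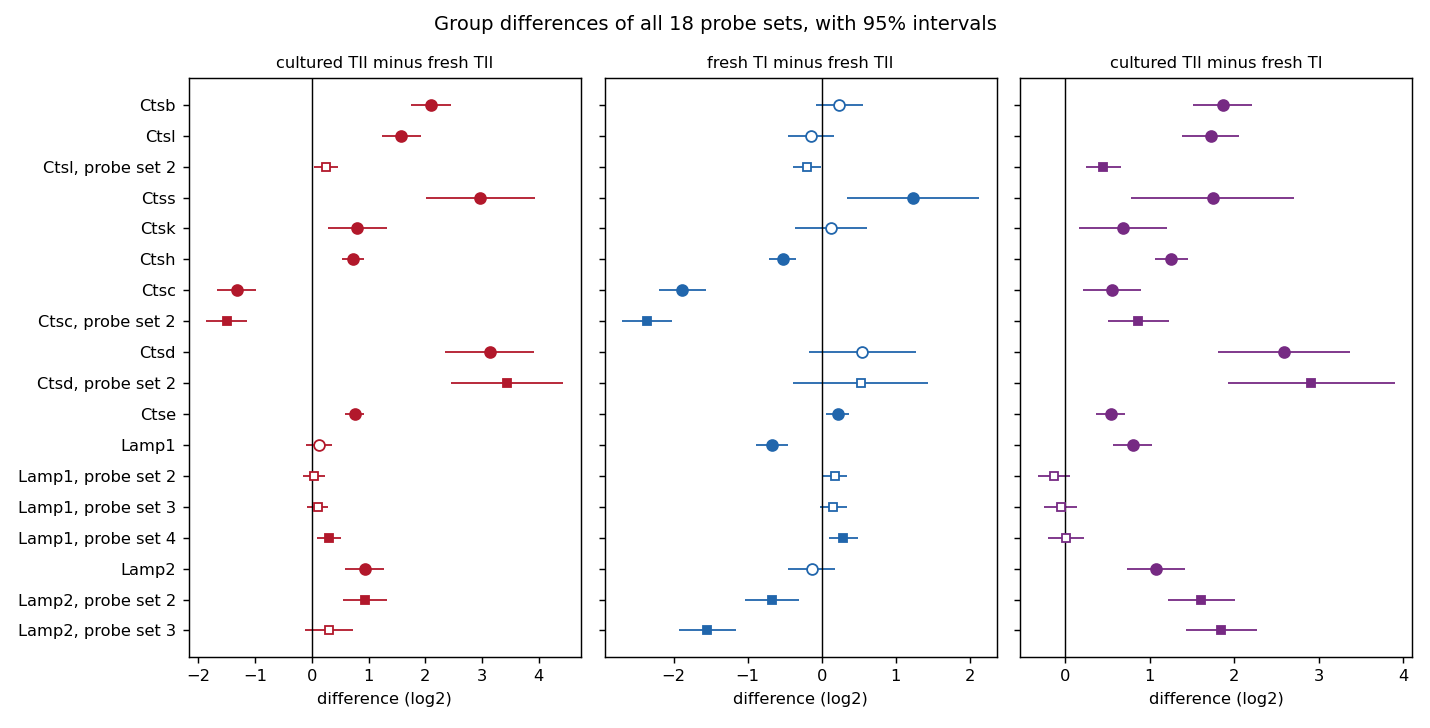
Differences between groups (log2, x axis) of all 18 probe sets, for cultured TII minus fresh TII (left), fresh TI minus fresh TII (middle) and cultured TII minus fresh TI (right). Circles are the brightest probe set of a gene, squares the others in order of brightness, bars the 95% intervals of the model, and filled symbols have an adjusted p under 0.05. In the left panel 13 of 18 probe sets are filled, against 33.4% of all probe sets, 11 to the right of 0 and 2, both of Ctsc, to the left.

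Between fresh TI and fresh TII cells the genes went in both directions. Of the 10, 2 were called higher (Ctss and Ctse), 3 lower (Ctsc, Ctsh and Lamp1) and 5 did not pass (Ctsb, Ctsd, Ctsk, Ctsl and Lamp2). Over all genes 33% were called higher and 21.2% lower here, so the share of members called, 5 of 10, was near the 54.2% of all genes. Arrays of the groups did not overlap for 4 of 10 members and for 50.4% of all genes. This comparison carries a general shift: the median gene was 0.11 (log2) higher in fresh TI cells, and the median of the 10 members was -0.006. The Ctse difference was 0.22 ± 0.07 (adjusted p = 0.0235), and it was 0.04 (adjusted p = 0.616, range over all alternatives 0.00823 to 0.616) when the arrays were given a common standard deviation. The Ctse call also ended without fresh TI array 1 or 4 (0.18 each) or fresh TII array 2 (0.21).

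For Lamp1, fresh TI cells were lower by 0.67 (difference -0.67 ± 0.10, adjusted p = 0.000125) on the brightest probe set, with no overlap. The other probe sets pointed the other way, at 0.17, 0.16 and, called, 0.29 (adjusted p = 0.0161), and the mean of all 4 was -0.01 (adjusted p = 0.861). For Lamp2 the brightest probe set gave -0.14 ± 0.15 (adjusted p = 0.438, 95% interval -0.45 to 0.18), but the others were called lower in fresh TI cells, at -0.68 ± 0.17 and -1.54 ± 0.18. The mean of the 3 Lamp2 probe sets was -0.79 (adjusted p = 0.00124). The brightest Lamp2 probe set is one whose name marks sequence shared by several transcripts.

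For the remaining genes the intervals of fresh TI minus fresh TII were -0.08 to 0.56 for Ctsb, -0.17 to 1.27 for Ctsd, -0.36 to 0.61 for Ctsk and -0.46 to 0.17 for Ctsl. These intervals rest on a spread shared by all 3 groups, so the cultured arrays enter them too. For Ctsk the SD was 0.76 on cultured TII, 0.015 on fresh TI and 0.095 on fresh TII arrays. A difference of up to these sizes was thus not excluded by this fit. Ctsb was called higher after quantile normalization (0.54, adjusted p = 0.00193) and with a common standard deviation (0.41, adjusted p = 0.0206), and without fresh TI array 4 both Ctsb (0.38, adjusted p = 0.0243) and Ctsd (0.88, adjusted p = 0.0173) were called higher, while Ctsh was no longer called lower after quantile normalization (-0.21, adjusted p = 0.0677). Over all alternatives adjusted p ran from 0.00193 to 0.424 for Ctsb, from 0.000353 to 0.375 for Ctsd and from 0.000211 to 0.0677 for Ctsh.

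Between cultured TII and fresh TI cells all 10 genes were called higher in culture, against 25.8% of all genes (60% were called in either direction), and 8 of 10 had no overlap between the arrays, against 25% of all genes for which the cultured arrays lay wholly above. This comparison shares the cultured arrays with the first one and the fresh TI arrays with the second. Over all genes the median difference was -0.11. The differences ran from 0.54 ± 0.08 for Ctse to 2.59 ± 0.36 for Ctsd. Ctsh was higher by 1.25 ± 0.09 (2.38-fold, adjusted p = 2.6e-07) and Lamp2 by 1.07 ± 0.16 (2.1-fold, adjusted p = 0.000115). Lamp1 was higher by 0.80 ± 0.11 on its brightest probe set, while its 3 dimmer probe sets, at -0.14, -0.06 and 0.003, were not called and the mean of all 4 was 0.15 (adjusted p = 0.0466). The values of the fresh TI arrays were less spread (SD 1.77 to 1.85) than those of the cultured TII arrays (SD 1.95 to 1.97). After quantile normalization the median of the 10 members was 0.80, against 1.16 as deposited and -0.06 for all genes. In that setting 9 members were called higher and Ctsc was not called.

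The order of levels within each gene can be read from these tests. Cultured TII stood above fresh TI, with fresh TI and fresh TII not separated, for Ctsb, Ctsd, Ctsk and Ctsl, and for Lamp2 on its brightest probe set (the other Lamp2 probe sets were called lower in fresh TI than in fresh TII cells). The order was cultured TII, then fresh TI, then fresh TII for Ctss and Ctse, and cultured TII, then fresh TII, then fresh TI for Ctsh. For Lamp1 cultured and fresh TII were not separated and fresh TI was lowest on the brightest probe set. Ctsc alone among the 10 had fresh TII highest, with cultured TII next and fresh TI lowest. These are the orders of the main fit, and not every step held under the alternatives. In some of them the calls between the fresh groups ended for Ctss, Ctse and Ctsh, and began for Ctsb and Ctsd. Calls of cultured TII against fresh TI ended in some for Ctsc and Ctsk, and those against fresh TII for Ctsk.

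Several members varied together from array to array within a group. Fresh TI array 4 was the lowest fresh TI array for 6 of 10 members (Ctsb, Ctsc, Ctsl, Ctss, Ctsd and Lamp2), against 26.6% of all genes, and cultured TII array 1 was the lowest cultured array for 6 of 10 (Ctsb, Ctsc, Ctsk, Ctsl, Ctss and Ctsd), against 34.1% of all genes. Without both arrays, a setting added after seeing the data, 8 genes remained higher and 1 lower in cultured than in fresh TII cells, with Ctss at 3.48 and Ctsd at 3.55.

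Of 8 measured macrophage markers, 6 were lowest on cultured TII array 1 (Lyz2, Fcgr2b, Aif1, Itgam, C1qc and Cd14), while Csf1r and C1qb were lowest on cultured TII array 3. On fresh TI array 4, 2 of the 8 were the lowest of the group (Fcgr2b and Lyz2) and 5 the highest (Csf1r, Aif1, Itgam, C1qc and Cd14). Values are given for Fcgr2b and Lyz2, which were chosen after their values were seen because they follow the cathepsins on these arrays. Fcgr2b, an Fc receptor, read 3.71, 5.09 and 6.004 on cultured TII, 3.95, 4.22, 3.96 and 3.53 on fresh TI, and 3.04, 3.22, 3.29 and 3.08 on fresh TII arrays. Its cultured arrays thus had the same low and high members as Ctss, Ctsd and Ctsk. It was higher in cultured than in fresh TII cells by 1.78 ± 0.38 (adjusted p = 0.00225). Lyz2, lysozyme, which both macrophages and TII cells make, read 12.07, 12.71, 12.49 and 10.77 on the fresh TI arrays, against 12.85, 12.98, 12.72 and 12.88 on fresh TII. Sftpc followed the same fresh TI arrays, at 11.94, 12.41, 12.51 and 10.73.

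Of 21 macrophage markers written down, 8 were measured: 2 were higher and 2 lower in cultured than in fresh TII cells, 2 higher and 2 lower in fresh TI than in fresh TII cells. Besides Fcgr2b, the integrin Itgam was higher in culture (0.57 ± 0.13), Lyz2 was lower (-2.46 ± 0.36) and so was Aif1 on its brightest probe set (-0.46 ± 0.08). The other Aif1 probe sets were called higher, at 1.19 and 1.26 (adjusted p = 0.0139 and 0.0217). The receptor of macrophage colony-stimulating factor, Csf1r, and the complement genes C1qb and C1qc were not called in that comparison. Cd14 was not called on its brightest probe set, but its other probe set was called higher (0.47, adjusted p = 0.00232). Summed on the linear scale without Lyz2, the other 7 markers came to 489 to 640 on cultured TII, 537 to 599 on fresh TI and 480 to 534 on fresh TII arrays. With Lyz2 the sums were 1490 to 2359, 2340 to 7266 and 7253 to 8582 for the same groups. No marker is at 0 on this scale, where the dimmest read 3.04. Of 11 measured markers of other leukocytes 7 were higher and 0 lower in fresh TI than in fresh TII cells, led by S100a9 at 1.77 ± 0.31, and 0 were called in cultured relative to fresh TII cells. Of 13 fibroblast and smooth muscle markers 7 were higher and 0 lower in fresh TI, and 2 higher and 1 lower in cultured TII, each relative to fresh TII cells. Of 6 endothelial markers 3 were higher and 0 lower in fresh TI, and 0 higher and 1 lower in cultured TII. Of 4 airway markers 1 was higher and 3 lower in fresh TI, and 0 higher and 3 lower in cultured TII. Over all genes 33% were higher and 21.2% lower in fresh TI than in fresh TII cells (54.2% called). In cultured relative to fresh TII cells 20.5% were higher and 14% lower (34.6% called). The shares called in fresh TI for fibroblast and smooth muscle (7 of 13) and endothelial markers (3 of 6) were thus near that of all genes. The part of macrophages or of these other cells in the cathepsin differences was not tested, and in such bulk RNA fewer cells of a type and less RNA per cell cannot be told apart.

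**Figure D3:**
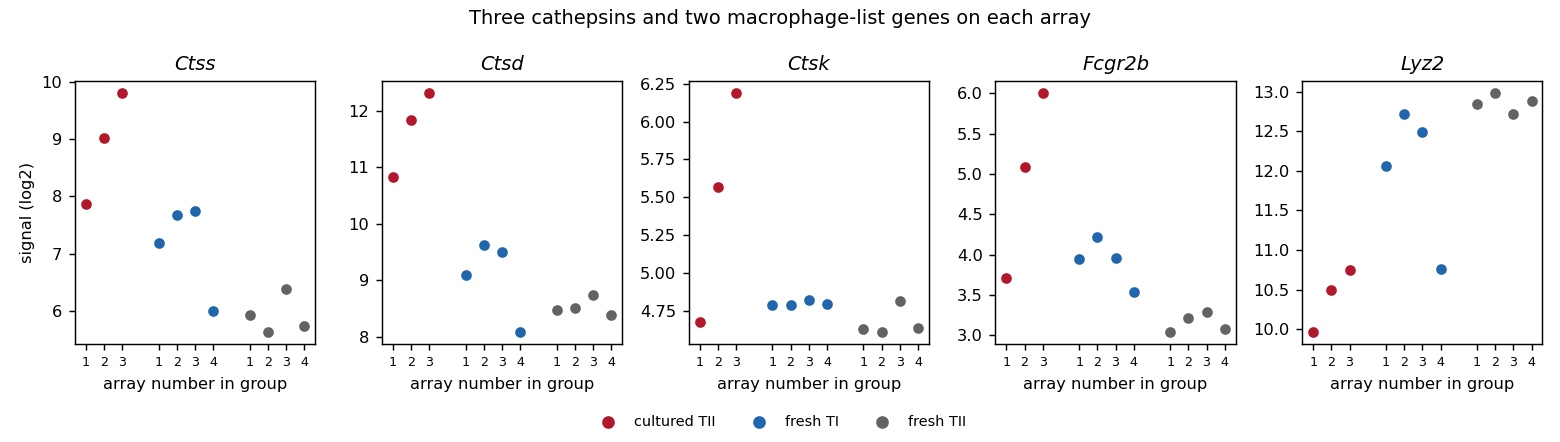
Signal (log2, y axis) of Ctss, Ctsd, Ctsk, Fcgr2b and Lyz2 on every array, by array number within its group. Groups are cultured TII (red), fresh TI (blue) and fresh TII (grey). No label says whether equal numbers in different groups belong together. Cultured TII array 1 is the lowest and array 3 the highest of its group in each panel, and fresh TI array 4 is the lowest of its group for Ctss, Ctsd, Fcgr2b and Lyz2.

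Lists written from textbook knowledge, with earlier results of these data known, give the setting. They hold other lysosomal genes, but also inhibitors of cathepsins (10 measured) and transcription factors (6 measured), which are counted in the totals that follow. Of 61 measured genes on 7 lists, 24 were higher and 8 lower in cultured than in fresh TII cells, 12 higher and 20 lower in fresh TI than in fresh TII cells, and 31 higher and 9 lower in cultured TII than in fresh TI cells. The shares called were 52.5%, 52.5% and 65.6% in that order of comparisons, against 34.6%, 54.2% and 60% of all genes, so that the share for fresh TI against fresh TII was near that of all genes. The same shares of all genes are the background of each list count below. The medians were 0.18, -0.02 and 0.21, against -0.005, 0.11 and -0.11 for all genes.

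The vacuolar proton pump, which acidifies lysosomes so that cathepsins can work, had 8 measured genes. In cultured relative to fresh TII cells 6 rose and 1, Atp6v0a1, fell (-0.34 ± 0.11), with a median of 0.83. The largest were Atp6v1b2 at 1.19 ± 0.26, Atp6v1d at 1.18 ± 0.15, Atp6v1f at 1.08 ± 0.11 and Atp6v1c1 at 0.96 ± 0.15. In fresh TI relative to fresh TII cells 0 were called higher and 5 lower, with a median of -0.58, among them Atp6v1b2 at -1.04 ± 0.24, Atp6v1d at -0.82 ± 0.13, Atp6v0c at -0.80 ± 0.18 and Atp6v1a at -0.74 ± 0.16. The other Atp6v1a probe sets gave 0.17, called the other way, and -0.82. The pump counts were the same after quantile normalization, median centring and with a common standard deviation.

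Of 16 genes of lysosomal hydrolases and their activators 8 rose and 2 fell in cultured relative to fresh TII cells, with a median of 0.40 (6 and 2 after quantile normalization). Psap, the precursor of the saposins that help enzymes degrade sphingolipids, rose by 1.61 ± 0.22 (other probe sets 1.87 and 2.07), and the acid lipase Lipa by 1.45 ± 0.24 (others 1.06 and 1.73). The ones that fell were Lyz2 and the folate polyglutamate hydrolase Ggh, at -1.34 ± 0.08. In fresh TI relative to fresh TII cells 2 were higher, Lipa at 1.26 ± 0.22 and Psap at 0.92 ± 0.21, and 6 lower, led by Ggh at -1.55 ± 0.07 and Lyz2 at -0.85 ± 0.33. The counts of fresh TI against fresh TII depended on the scaling: 4 higher and 5 lower after quantile normalization, and 4 and 4 with a common standard deviation. In cultured TII relative to fresh TI cells 9 were higher and 1 lower (6 and 3 after quantile normalization), with Fuca1 at 1.01 ± 0.08, Gm2a at 0.92 ± 0.17 and Creg1 at 0.87 ± 0.17.

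Among 7 further membrane proteins of endosomes and lysosomes, 3 rose and 0 fell in cultured relative to fresh TII cells. They were the small GTPase of early endosomes Rab5a at 1.24 ± 0.09, the tetraspanin Cd63 at 1.22 ± 0.17 and the late endosomal GTPase Rab7a at 0.78 ± 0.14. Scarb2 was not called on its brightest probe set (0.20, adjusted p = 0.0502), but its other probe set was called higher (0.93, adjusted p = 0.000128). In fresh TI relative to fresh TII cells 0 were higher and 3 lower, Cd63 at -0.72 ± 0.15, the metal transporter Slc11a2 at -0.54 ± 0.09 and Rab7a at -0.36 ± 0.13. Of 12 sorting genes 3 rose and 3 fell in cultured relative to fresh TII cells. The sorting receptor Sort1, at 0.79 ± 0.12, clathrin light chain Cltb, at 0.70 ± 0.06, and Igf2r, the mannose 6-phosphate receptor that carries cathepsins to lysosomes, at 0.36 ± 0.08, were higher, while the endocytic receptor Lrp2, at -2.48 ± 0.13, was lowest. In fresh TI relative to fresh TII cells 1 sorting gene was higher and 4 were lower, or 2 and 3 after quantile normalization, with Lrp2 at -2.18 ± 0.12 and the clathrin heavy chain Cltc at -0.96 ± 0.15.

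The list of inhibitors had 10 measured genes, of which 4 rose and 1 fell in cultured relative to fresh TII cells. Cystatin C (Cst3), the main secreted inhibitor of cysteine cathepsins, read 10.74, 10.79 and 10.72 on cultured TII, 10.46, 10.40, 10.30 and 10.35 on fresh TI, and 9.86, 9.71, 9.76 and 9.60 on fresh TII arrays, with no overlap. It was above fresh TII by 1.02 ± 0.08 in culture and by 0.64 ± 0.07 in fresh TI cells. Cystatin B (Cstb), the cytosolic inhibitor, rose by 1.02 ± 0.20 in culture. The kininogen gene Kng2, whose product inhibits cysteine proteases, was 2.61 ± 0.11 higher in cultured TII and differed by -1.54 ± 0.10 in fresh TI cells, each relative to fresh TII. Spock2 and Serpinb9, known as a matrix proteoglycan and a granzyme B inhibitor, were also on this list: Spock2 stood at 2.04 ± 0.21 in cultured TII and 4.70 ± 0.19 in fresh TI cells, and Serpinb9 at -1.36 ± 0.15 and 1.05 ± 0.14, each relative to fresh TII.

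Of 6 measured transcription factors on the biogenesis list (Tfeb was not analysed here), Myc was the 1 gene called in cultured relative to fresh TII cells, at -1.11 ± 0.10. Myc was lower still in fresh TI relative to fresh TII cells, at -2.54 ± 0.09, and higher in cultured TII than in fresh TI cells, at 1.42 ± 0.10. Tfec (0.174) and Foxo1 (0.175) were called higher in fresh TI than in fresh TII cells, but 0 of the list were after quantile normalization. Foxo1 was lower in cultured TII than in fresh TI cells, at -0.33 ± 0.07. Of 2 other lysosomal proteases measured, Ctsj, known from rodent placenta, was called higher in fresh TI than in fresh TII cells, at 0.55 ± 0.09, and neither was called in culture relative to fresh TII.

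**Figure D4:**
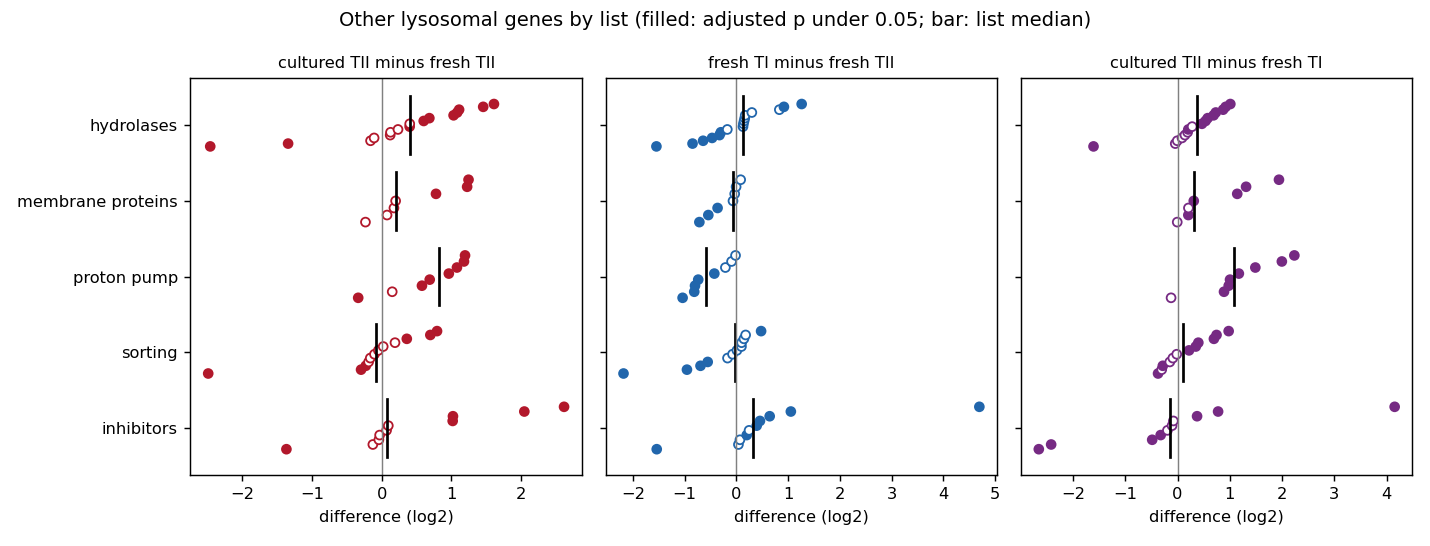
Differences (log2, x axis) of other lysosomal genes and of cathepsin inhibitors on 5 lists (rows). Panels are cultured TII minus fresh TII (left), fresh TI minus fresh TII (middle) and cultured TII minus fresh TI (right). Points are genes, filled where the adjusted p is under 0.05, and black bars are list medians. The proton pump median is 0.83 in the left panel, -0.58 in the middle and 1.09 in the right.

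Likeness was measured by Pearson r over the 11 arrays, as a description: the arrays fall into 3 groups, and r follows the order of the group levels as much as the spread within them. For each member whose arrays spanned at least 1 log2 unit, the 3 genes with the highest r were named. For Ctsd they were Arpc1b, a subunit of the actin-nucleating complex, at 0.991, the progranulin gene Grn at 0.989 and the oxidase subunit Cyba at 0.986. For Ctss they were Arl11, Psap and Pfkp, at 0.979, 0.976 and 0.975, and for Ctsk Mmp12, the macrophage elastase, Pcp4 and Arg1, at 0.976, 0.975 and 0.953. For Ctsb they were Spp1 (osteopontin), Arpc1b and Pkm, at 0.992, 0.988 and 0.987, and for Ctsl Ccl2, Arpc4 and Nup210, at 0.985, 0.985 and 0.983.

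The genes most like Ctsc were the aminopeptidase Anpep at 0.991, the haem synthesis enzyme Alas1 at 0.99 and Mst1 at 0.985. For Ctsh they were malic enzyme Me1, Med6 and Arpc5l, at 0.993, 0.992 and 0.991. Lamp2 came with Guk1, Hspe1 and Slc25a3, at 0.981, 0.98 and 0.978, and Lamp1 with Ugcg, Grb10 and Rpl13a, at 0.966, 0.959 and 0.948. Ctse spanned less than 1 log2 unit and was left out.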

How the data were processed

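The authors deposited 1 log2 value per probe set and array. How they made it from the scans is not stated in the labels or file headers, and the log2 scale was read from the range of the values (1.37 to 13.16). Array medians lay between 5.43 and 5.51. Array SDs lay between 1.77 and 1.85 for fresh TI, 1.95 and 1.97 for cultured TII, and 1.92 and 1.95 for fresh TII. No further scaling was applied. Of 8799 probe sets, 59 controls were set aside. Genes were named from the probe annotation (7006 probe sets with 1 gene), and a gene was represented by its brightest probe set, by the mean of 11 arrays. All 10 member symbols matched the same Entrez gene in RefSeq. A model of 3 group means over 11 arrays was fitted to 8740 probe sets with limma 3.58.1 (lmFit, eBayes, two-sided) in R 4.3.3, with Benjamini-Hochberg adjustment per comparison. The fit was tested on simulated data. The number of arrays limits precision.

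Members and lists were chosen with earlier results of these data known. Named were all members, up to 4 called genes per list and comparison with the largest difference, genes set beside a member as inhibitor or marker, and the 3 genes most like each member. Scarb2 was named as well, because its probe sets differed in the call. List counts are given without set tests. Alternatives were other scalings, filters on dim probe sets, fits on 2 groups, a trended robust prior, array weights, the replicate block, the mean of a gene's probe sets, a stricter threshold and leaving out arrays.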

Additional observations from a re-analysis of the deposited data

Results flagged for a closer look

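For Ctsk 1 fresh TII array was flagged as apart from the others of its group. The highest fresh TII value of Ctsk was 4.815 on array 3, and the next was 4.636. That gap was 0.882 of the whole range of the 4 arrays, which was itself narrow. It was flagged among 36 sets of 4 fresh TI or fresh TII arrays examined, 1 for each of 18 probe sets and group. Chance flags about 1 in 20 such sets, so 1 flag among 36 sets is not more than chance would give.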

How the results depend on the processing

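In cultured TII minus fresh TII, 183 of 187 member values under the alternatives kept their direction and side of the threshold, and the other 4, all of Ctsk, lost the call. For cultured TII minus fresh TI it was 180 of 187, with 7 lost, and for fresh TI minus fresh TII 167 of 197, with 17 lost, 9 gained and 4 turned. The 4 that turned were all Lamp2 in fresh TI minus fresh TII: 0.10 after quantile normalization, 0.0299 with array weights, and 0.045 both without fresh TI array 4 and without it and cultured TII array 1, a setting added after seeing the data. Leaving out 1 array at a time gave -0.23 to 0.045 for it. The cause was not tested. The number of members called in that comparison was 5, and 3 at an adjusted p under 0.01. Leaving out 1 array at a time gave 3 to 6 of 10 called there, 8 to 9 for cultured TII minus fresh TII and 8 to 10 for cultured TII minus fresh TI. The counts of 3 came without fresh TII array 2 and without fresh TI array 1. The Ctss difference of fresh TI from fresh TII was no longer called without any 1 of fresh TI arrays 1, 2 or 3 or fresh TII arrays 2 or 4, at 1.03 to 1.22, or with a trended robust prior (1.23); its adjusted p ran from 5.62e-05 to 0.0631 over all alternatives.

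No label says whether the replicate numbers of the titles pair arrays across groups. Over 10 same-numbered pairs the correlation of deviations from the group mean ran from -0.20 to 0.28. Over 30 other pairs it ran from -0.27 to 0.23. These ranges overlap and cannot decide whether arrays are paired. With the replicate block, 9, 5 and 10 members were called in the 3 comparisons, as without it, and no member's call changed. That block held 32, 30 and 39 called genes of the other lysosomal lists, against 32, 32 and 40 without it. Leaving out probe sets below the median brightness, which removes Ctse and Ctsk, left 2671 probe sets called for fresh TI minus fresh TII and 2993 for cultured TII minus fresh TI, against 4783 and 5235, since fewer were tested. Signal over background is not known, which limits what can be said of Ctse and the dim Lamp1 probe sets.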
